A study of Homo sapiens with 3 samples.

Results

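The genes described here are 9 tumour suppressors known for promoter hypermethylation in colon cancer: CDKN2A, RARB, ESR1, RASSF1, RUNX3, SFRP1, MGMT, TIMP3 and PDLIM4. They were chosen by name, and every probe that the scanner files assign to one of these names was taken. The arrays held 14 such probes, of 41000 probes in all, on 32 of 43376 spots per array, and the 9 genes stand among 18615 genes named on the array. Expression was measured in YB5 cells, which are 1 clone of the SW48 colon cancer line with a single-copy GFP reporter under a CMV promoter silenced by CpG methylation. Treated and control cells both carry that reporter. Cells were given decitabine at 25 nM, carboplatin at 20 μM by the labels, or both drugs at these doses, with 4 daily doses from day 1 to day 4, and harvest was at day 6. Control cells were given DMSO, the diluent, on the same plan. Each treatment has 1 dual-colour array, with treated RNA in the green channel (Cy3) and control RNA in the red channel (Cy5), and the dyes were exchanged on none of the 3 arrays, so that dye preferences of a probe enter each value. Below, the arrays are called DAC-labelled (decitabine), Carbo-labelled (carboplatin) and combination. No treatment has a replicate, so values are given untested, and their precision is limited by how few arrays there are.

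Promoter CpG methylation is a lasting form of gene silencing, in which methyl-binding proteins and histone-modifying enzymes keep the start of a gene closed. Decitabine is incorporated into DNA, traps DNA methyltransferases and lets methylation dilute as cells divide, while carboplatin forms platinum cross-links in DNA. In colon cancer such silencing is known to reach genes of quite different roles. CDKN2A encodes p16, an inhibitor of CDK4 and CDK6, and from another start the p53 activator ARF. RASSF1 encodes a RAS-association scaffold of the Hippo pathway, RUNX3 a transcription factor downstream of TGF-β, and RARB and ESR1 the nuclear receptors for retinoic acid and estrogen. SFRP1 binds and blocks WNT ligands outside the cell, MGMT removes alkyl groups from guanine in DNA, and TIMP3 inhibits matrix metalloproteinases. PDLIM4 is a PDZ and LIM domain protein of the actin cytoskeleton.

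Below, the sequences of the probes on which most of the values rest are shown 5′ to 3′, in lower case with CpGs in capitals, so that what each value measured can be seen. CDKN2A and RUNX3 are given by their first 30 bases of 60, and the coding probes of RASSF1, ESR1 and MGMT are given whole.
CDKN2A A_23_P43484: gggttactggcttctcttgagtcacactgc
CDKN2A A_23_P43490: ttaaaaatgtcctgccttttaaCGtagata
RUNX3 A_23_P51231: gtacagacagcctgggctggtaaaagtagg
RASSF1 A_24_P148777: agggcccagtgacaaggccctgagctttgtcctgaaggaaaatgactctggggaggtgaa
ESR1 A_24_P383478: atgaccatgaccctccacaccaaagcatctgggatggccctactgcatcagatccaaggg
MGMT A_23_P104323: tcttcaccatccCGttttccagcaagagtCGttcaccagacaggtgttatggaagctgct
In the coordinates of the files (GRCh37), the CDKN2A probes lie at chr9:21967780-21967839 and chr9:21968039-21968098 on the minus strand, in the last part of the gene, which the transcripts of p16 and ARF share, so these probes do not separate the products. The RUNX3 probe lies at chr1:25226333-25226392 (minus strand) and the printed RASSF1 probe at chr3:50368766-50368825 (minus strand). The other RASSF1 probe, A_23_P41066, lies at chr3:50367320-50367379 on the same strand, nearer the 3′ end. The printed ESR1 probe lies at chr6:152129048-152129107 (plus strand), and the MGMT probe spans a splice junction, from chr10:131506282 to chr10:131557499 (plus strand).

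Promoter windows of RefSeq (GRCh38.p14), 250 bases before a transcript start, were used for 8 of the 9 genes, in 18 windows. SFRP1 is the gene without a window here, because windows on its chromosome, 8, were left out for the 9 genes. Over all 35116 windows the median was 11 CpGs, and 18.3 % of the windows held CCCGGG, the palindromic SmaI and XmaI site that the study's methylation assay reads. MGMT had the most CpGs of the 8 genes, 36 in its window, a number that 4.85 % of all windows reached. PDLIM4 had 33, as did the downstream of the RUNX3 starts, which 8.15 % of windows reached. The upstream RUNX3 start had 13. The windows of CDKN2A held 24 CpGs before the ARF start and 20 before the p16 start, TIMP3 held 26 and RASSF1 held 25 in its only window used. Whether that window belongs to the RASSF1 start that is methylated in colon cancer was not examined. RARB ranged from 1 to 28 CpGs over 4 starts and ESR1 from 2 to 11 over 6 starts. CCCGGG occurred 2 times in the downstream RUNX3 window and in that of TIMP3, 1 time in those of MGMT and RASSF1, in 1 window of ESR1 and in 2 of RARB, and in no window of CDKN2A or PDLIM4.

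**Figure D1:**
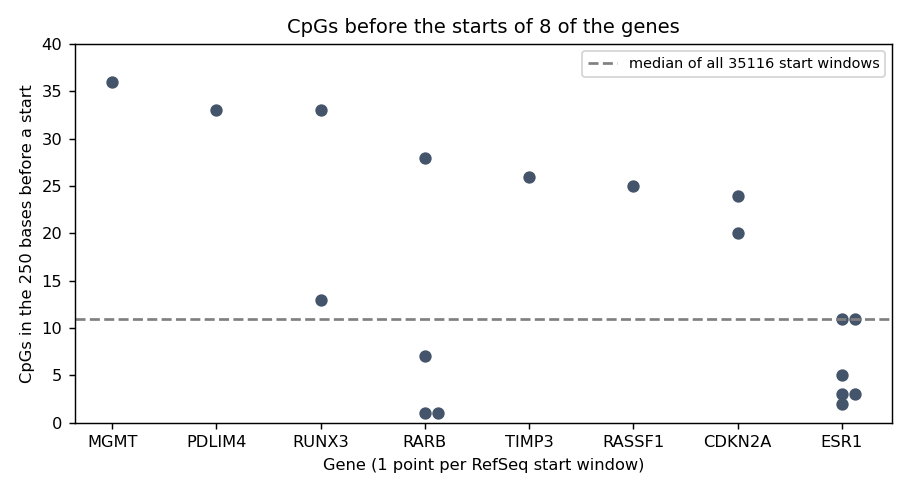
Number of CpGs (y axis) in the 250 bases before each RefSeq start of 8 genes (x axis). Each point is 1 start window, and the dashed line is the median of 11 over all 35116 windows. MGMT, PDLIM4 and the downstream RUNX3 start lie at 33 to 36, while all ESR1 windows lie at or under the median.

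The windows of RUNX3 and CDKN2A are shown because these genes moved most on the arrays. Those of PDLIM4 and MGMT are shown because, with similar numbers of CpGs, the one gene was expressed in control cells and the other was not above background. Capitals mark CpGs, and each window is on the strand of its gene, with its place in GRCh38.p14.
RUNX3, upstream start, chr1:24965011-24965260, minus strand: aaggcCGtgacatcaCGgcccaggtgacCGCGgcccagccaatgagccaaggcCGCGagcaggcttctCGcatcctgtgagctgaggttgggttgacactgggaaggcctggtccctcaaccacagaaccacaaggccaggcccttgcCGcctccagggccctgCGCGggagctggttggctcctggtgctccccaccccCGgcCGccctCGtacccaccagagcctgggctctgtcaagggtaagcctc
RUNX3, downstream start, chr1:24930277-24930526, minus strand: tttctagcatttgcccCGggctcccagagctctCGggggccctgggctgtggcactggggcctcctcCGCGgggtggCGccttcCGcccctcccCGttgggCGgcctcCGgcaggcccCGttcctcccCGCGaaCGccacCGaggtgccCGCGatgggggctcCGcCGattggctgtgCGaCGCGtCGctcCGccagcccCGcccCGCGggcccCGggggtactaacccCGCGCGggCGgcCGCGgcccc
CDKN2A, ARF start, chr9:21995325-21995574, minus strand: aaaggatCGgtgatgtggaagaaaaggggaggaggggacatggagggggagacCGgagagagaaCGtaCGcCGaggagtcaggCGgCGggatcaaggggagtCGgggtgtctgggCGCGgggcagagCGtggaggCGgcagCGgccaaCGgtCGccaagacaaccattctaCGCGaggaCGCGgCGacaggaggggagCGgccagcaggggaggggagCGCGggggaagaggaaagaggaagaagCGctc
CDKN2A, p16 start, chr9:21974858-21975107, minus strand: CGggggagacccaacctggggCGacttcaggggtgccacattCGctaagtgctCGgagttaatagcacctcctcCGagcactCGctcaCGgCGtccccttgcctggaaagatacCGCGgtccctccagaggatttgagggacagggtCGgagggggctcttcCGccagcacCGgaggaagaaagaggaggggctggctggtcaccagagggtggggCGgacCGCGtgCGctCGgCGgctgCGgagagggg
PDLIM4, chr5:132257446-132257695, plus strand: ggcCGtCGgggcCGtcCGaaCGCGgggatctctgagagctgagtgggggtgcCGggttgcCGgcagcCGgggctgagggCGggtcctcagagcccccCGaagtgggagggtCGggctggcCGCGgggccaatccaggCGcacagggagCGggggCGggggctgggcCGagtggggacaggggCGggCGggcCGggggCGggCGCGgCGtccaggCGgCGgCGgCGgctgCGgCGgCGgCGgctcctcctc
MGMT, chr10:129466991-129467240, plus strand: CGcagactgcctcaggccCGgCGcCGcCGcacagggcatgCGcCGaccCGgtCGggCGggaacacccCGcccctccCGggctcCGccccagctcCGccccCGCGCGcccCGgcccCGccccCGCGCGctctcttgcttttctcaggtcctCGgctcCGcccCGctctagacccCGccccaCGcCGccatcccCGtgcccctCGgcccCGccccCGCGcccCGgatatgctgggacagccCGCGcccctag
Methylation of these windows was not analysed here.

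Some facts of the arrays touch every value. The treated channel was well above background, by the scanner software's own mark, on 65.8 to 68.5 % of gene spots and the control channel on 68.2 to 70.3 %. At the left edge of the DAC-labelled array, in its first 9 spot columns with 10.1 % of all spots, the median log2 change was 0.75, against -0.02 in its other columns, and their control signal was dim. The single-spot probes of the 9 genes lie outside these columns, while 2 spots of a CDKN2A probe and 1 of an ESR1 probe lie in them and were left out as outliers. Among 264 probes spotted 10 times, the log2 changes of repeated spots had a pooled SD of 0.23 (DAC-labelled, 0.0786 without those columns), 0.0751 (Carbo-labelled) and 0.0769 (combination). These SDs cover error within an array only. Arrays are named by their labels, which were set beside genes with known drug responses. Of 12 p53 targets, which DNA damage induces, 11 rose at least 1.5-fold on the DAC-labelled array (median log2 change 2.27), 7 on the Carbo-labelled array (0.64) and 11 on the combination array (2.06). Of 11 germline genes, which methylation commonly silences, PRAME alone rose that far. It was at least 7.79-fold higher on the Carbo-labelled array and at least 5.94-fold higher with both drugs, and not above background in either channel on the DAC-labelled array. The larger p53 response thus stood on the DAC-labelled array and the germline rise on the Carbo-labelled one, which goes against these labels, while the 7 p53 targets that rose on the Carbo-labelled array are a response its label also names. More genes rose on the DAC-labelled array than on the Carbo-labelled one (1971 against 514, and 868 against 458 in a fit without the edge columns). The single-drug labels may have been exchanged, and with 1 array per treatment an exchange and a true response cannot be told apart. No array was reassigned, so every single-drug value below belongs to the array carrying the label and would pass to the other drug if the labels were exchanged. Colon and epithelial markers matched the labelled cell type, with 8 to 10 of 12 above background in the control channels and CDX1 and GPA33 above it in none. The summed level of these markers ran from 149000 to 312000 units over the 6 channels. That of 12 markers of fibroblasts, endothelium and blood ran from 1050 to 1250, with 3 to 6 above background per channel.

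RUNX3 showed the largest change of the 9 genes. Its probe read 56.2 units in the treated and 92 in the control channel on the DAC-labelled array, 484 and 117 on the Carbo-labelled array, and 151 and 84 with both drugs. The treated signal was thus the higher one on 2 arrays, although the treated channel was the dimmer one over all spots (medians 163.5 to 167.3 against 282.1 to 315). After normalization, RUNX3 was 8.16-fold higher in treated cells on the Carbo-labelled array (log2 change 3.03), where both channels were well above background. That change ranked 4 among 18613 genes. With both drugs only the treated channel was above background. The gene was at least 2.44-fold higher there, with the control set no lower than the dimmest spots that are above background, and its fitted log2 change of 1.51 has no measured base. On the DAC-labelled array neither channel was above background, so no change can be given. In RNA of a whole culture, a rise in all cells and a rise in a share of the cells cannot be told apart.

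The RUNX3 control signal was at the edge of detection throughout, above background on 1 of 3 arrays, with a log2 level of 6.28 ± 0.19 (SD, n = 3 control channels). The change on the Carbo-labelled array ranged from 2.92 to 4.67 over the settings tried and that with both drugs from 1.45 to 5.06. The treated channel alone was lower with both drugs than on the Carbo-labelled array, by 3.2 times in mean signal, by 3.99 times in the scanner software's processed signal, and by a log2 level difference of -1.76. The order of the fold changes was not stable. The difference of the fitted log2 changes, both drugs minus Carbo-labelled, was -1.52 here, -1.13 with a normexp offset of 0 and -1.58 without background subtraction. From the scanner software's processed signals, which differ in background, trend and dye steps together, it was 0.40.

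CDKN2A was expressed in control cells. Its brightest probe, A_23_P43490, had a control level of 11.79 ± 0.11 (SD, n = 3) on the log2 scale, and A_23_P43484 one of 10.01 ± 0.04. A_23_P43490 read 1230 units in the treated and 5890 in the control channel on the DAC-labelled array, 2990 and 5170 on the Carbo-labelled array, and 1910 and 4850 with both drugs. Its log2 change was -1.07 on the DAC-labelled array, a fall of 2.1-fold, 0.47 on the Carbo-labelled array and -0.32 with both drugs. A_23_P43484 is spotted 10 times per array, which gives these values an error of their own. Its log2 change was -0.70 ± 0.0335 (SD over 7 spots) on the DAC-labelled array, 0.99 ± 0.0649 (9 spots) on the Carbo-labelled array and 0.18 ± 0.054 (10 spots) with both drugs. These values leave out the spots marked as outliers. Whether the spots of other repeated probes also lie apart between arrays was not examined. The SD over spots leaves out differences between cultures and labelling reactions.

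**Figure D2:**
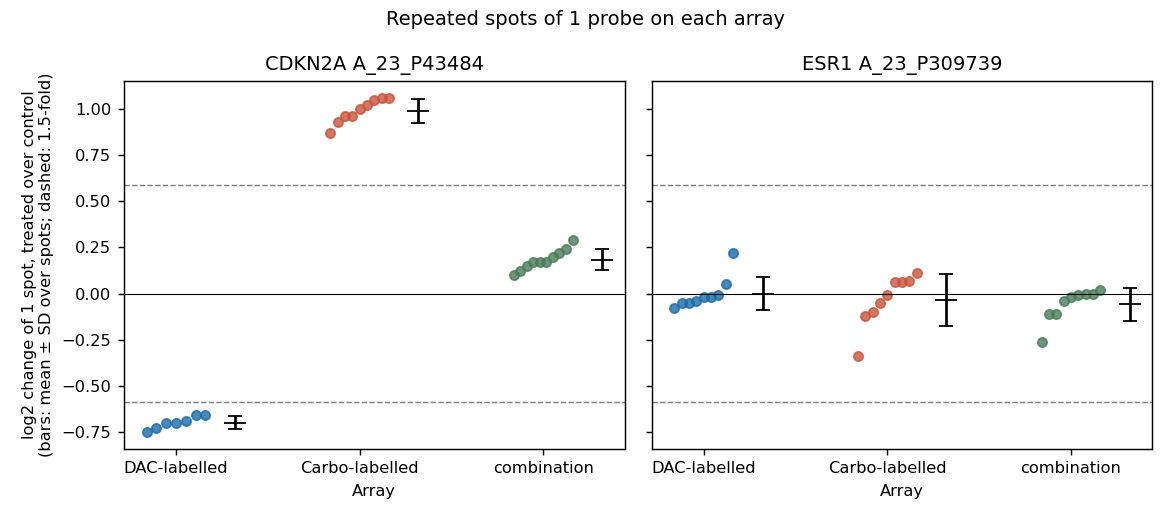
log2 change of each spot (y axis, treated over control) of the probes of CDKN2A and ESR1 that are spotted 10 times, by array (x axis). Bars are the mean ± SD over the spots used, and dashed lines mark 1.5-fold. The CDKN2A spots lie between -0.75 and -0.66 on the DAC-labelled array, between 0.87 and 1.06 on the Carbo-labelled array and between 0.10 and 0.29 with both drugs, while the ESR1 spots lie around 0 on every array.

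Both CDKN2A probes were thus lowest on the DAC-labelled array, highest on the Carbo-labelled array and between them with both drugs. The probes were offset from each other in log2 change on every array. On the DAC-labelled array 3 of the 10 spots were marked as outliers by the scanner software and left out, of which 2 lie in the dim edge columns (control signals of 639 and 604 units against 1330 to 2090 on the other spots). With those spots kept, the log2 change was -0.44. With arrays centred on the median in place of loess, A_23_P43490 changed by -0.02 on the Carbo-labelled array and A_23_P43484 by -0.20 with both drugs, so the sign of these values depends on the scaling. The fall on the DAC-labelled array kept its direction for both probes in every setting, from -1.61 to -0.89 for the gene and from -1.15 to -0.44 for A_23_P43484.

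RASSF1 was also expressed in every channel, and its probes gave different values. Which RASSF1 transcripts each probe reads was not determined, so these values are not those of a particular transcript. A_23_P41066 read 1730 units in the treated and 5570 in the control channel on the DAC-labelled array, 3900 and 8080 on the Carbo-labelled array, and 3240 and 7260 with both drugs. Its log2 changes were -0.51, 0.21 and -0.12, all under 1.5-fold. Its control level was 11.82 on the DAC-labelled array against 12.35 and 12.36 on the other two, the widest spread of the expressed probes (SD 0.30, n = 3). A_24_P148777 read 280 and 538, then 403 and 538, then 287 and 477 units, treated before control in each pair. It changed by 0.07, by 0.66, which is 1.58-fold, and by 0.13 in the same order. Each probe was highest on the Carbo-labelled array, and the probes disagreed on whether RASSF1 was lower than control on the DAC-labelled array. With arrays centred on the median, A_23_P41066 changed by -0.28 on the Carbo-labelled array, so the sign of that value depends on the scaling. In the authors' deposited values A_23_P41066 changed by -0.97 on the DAC-labelled and by 0.30 on the Carbo-labelled array.

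PDLIM4 was expressed in every channel (control level 9.12 ± 0.05, SD, n = 3). It read 333 units in the treated and 815 in the control channel on the DAC-labelled array, 334 and 826 on the Carbo-labelled array, and 300 and 711 with both drugs. Its log2 changes of -0.23, -0.21 and -0.35 lay within 0.15 of each other and under 1.5-fold. With arrays centred on the median they were -0.62, -0.51 and -0.64, and those on the DAC-labelled and combination arrays then passed 1.5-fold. The PDLIM4 probe lies at chr5:131607933-131607992 (GRCh37, plus strand).

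ESR1 has 3 probes, of which only A_24_P383478 was above background. This probe opens with the start codon of the receptor and was dim in all channels, at 75.7 to 82.7 units treated and 121 to 141 control. Its log2 changes were 0.01, -0.05 and -0.02 on the DAC-labelled, Carbo-labelled and combination arrays. A_23_P309739, spotted 10 times at chr6:152423908-152423967 (GRCh37, plus strand), gave -0.00 ± 0.0922, -0.04 ± 0.139 and -0.06 ± 0.0902 (SD over 9 spots each). At most 1 of its 10 spots was above background on any array. A_24_P325215, which spans a splice junction, was below background throughout.

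RARB and MGMT were above background in no channel of any array. The RARB probe (chr3:25638622-25638681, GRCh37, plus strand) read 54.6 to 59.3 units in the treated and 79.8 to 85.3 in the control channels, and the MGMT probe 54.1 to 57.7 and 75.2 to 80.9. Negative control spots had medians of 56.3 to 57.5 and 74.1 to 74.9. A rise that stays under the detection limit of the array would not be seen, and no change is given for these genes.

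**Figure D3:**
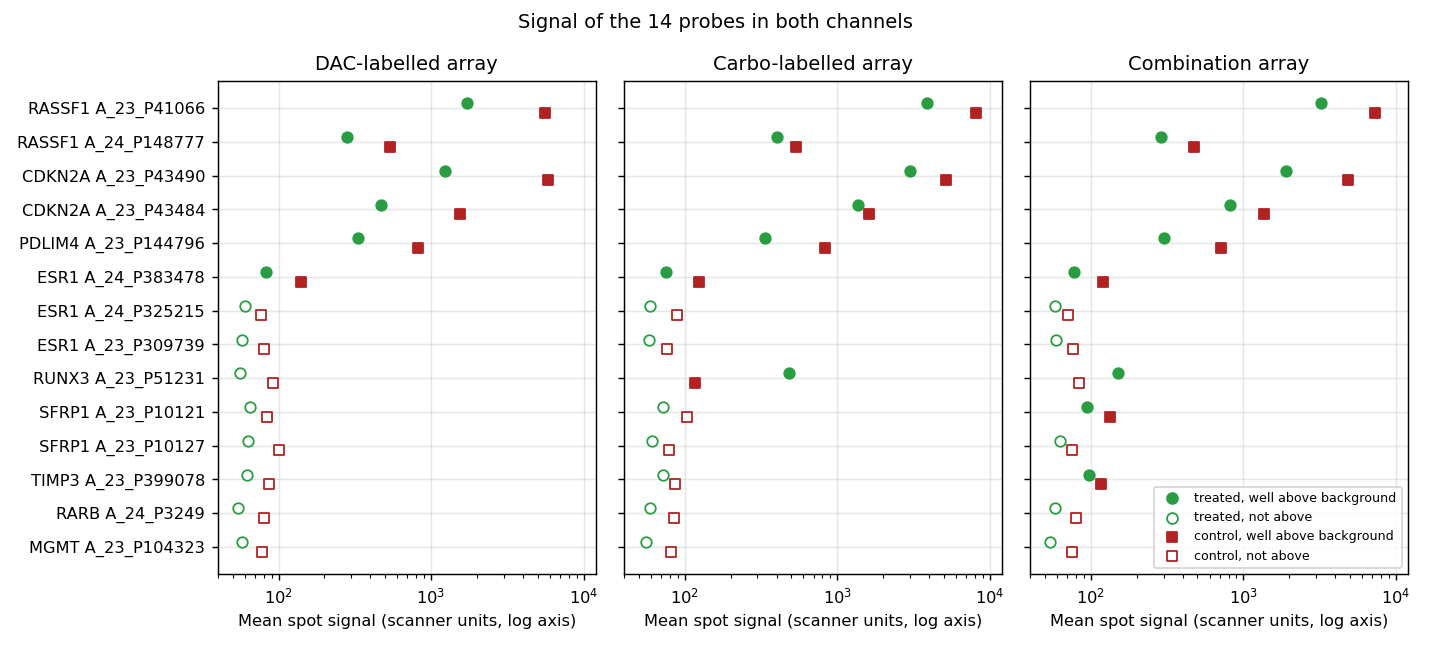
Mean spot signal in scanner units (x axis, log scale) of the 14 probes (y axis, median over spots where a probe has several) in the treated (circles) and control (squares) channels of each array. Filled marks are well above background. RASSF1, CDKN2A and PDLIM4 are filled on all arrays, RUNX3 stands out from the dim probes on the Carbo-labelled and combination arrays, and RARB and MGMT are open throughout.

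SFRP1 and TIMP3 crossed the background mark on the combination array alone, and they did so in both channels. The TIMP3 probe (chr22:33258540-33258599, GRCh37, plus strand) read 61.7 units treated and 86.4 control on the DAC-labelled array, 71.7 and 86.2 on the Carbo-labelled array, and 97.9 and 116 with both drugs. The log2 change of TIMP3 with both drugs was 0.41, or 1.33-fold, under the 1.5-fold mark. SFRP1 probe A_23_P10121 read 94.8 and 133 units with both drugs, for a log2 change of 0.10, and 64.6 to 71.6 units treated on the other arrays. The second SFRP1 probe, A_23_P10127, was below background everywhere. The TIMP3 and SFRP1 spots are close to each other on the slide, in rows 255 and 253 and columns 42 and 35. Of 107 spots within 10 rows and columns of the point between them that were below background on both single-drug arrays, 10 (9.35 %) had a treated signal above it with both drugs, against 2.93 % of 11870 such spots on the whole array. The TIMP3 and SFRP1 spots that set this place meet the same conditions themselves, and the 10 may include them. This look at the neighbouring spots was chosen after the values were seen. Nothing is concluded from it, and its part in the result was not tested.

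**Figure D4:**
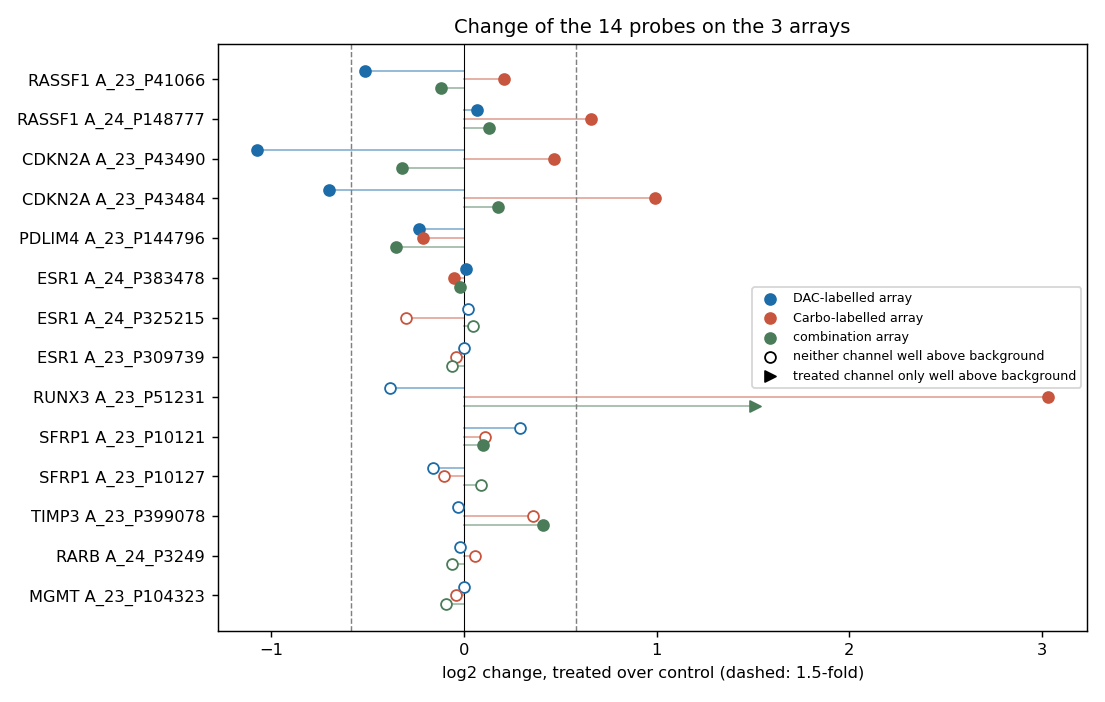
log2 change (x axis, treated over control) of the 14 probes (y axis) on the 3 arrays, with dashed lines at 1.5-fold. Open circles have neither channel above background and the arrowhead has the treated channel alone above it. Only probes of RUNX3, CDKN2A and RASSF1 pass 1.5-fold, from -1.07 for CDKN2A to 3.03 for RUNX3.

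By its brightest probe, 1 of 9 fell at least 1.5-fold on the DAC-labelled array (CDKN2A) and 0 rose, where over all genes 4.67 % fell and 10.6 % rose. The probes that stand for the 9 genes lie outside the edge columns, and in a fit without those columns 4.98 % of all genes fell and 5.16 % rose on that array. On the Carbo-labelled array 1 rose (RUNX3) and 0 fell, where over all genes 2.76 % rose and 1.49 % fell. With both drugs 1 rose (RUNX3) and 0 fell, where over all genes 7.47 % rose and 5.93 % fell. The median log2 change of the 9 genes was -0.03, 0.11 and -0.06 in that order, against 0.01, -0.01 and 0.00 over all genes. By probe, 2 of 14 fell on the DAC-labelled array, both of CDKN2A, against 3.6 % down and 9.14 % up of all probes, or 3.83 % and 4.01 % without the edge columns. On the Carbo-labelled array 3 of 14 rose, 1 each of CDKN2A, RASSF1 and RUNX3, against 2.01 % up and 1.13 % down. With both drugs 1 of 14 rose, against 5.69 % up and 4.47 % down. Of the 9 genes, 4, 5 and 6 were above background in both channels on the DAC-labelled, Carbo-labelled and combination arrays, and the counts of changed genes come from these and, with both drugs, from RUNX3. These shares are of a few genes, and no count of the 9 was tested against its background.

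The combination array was set beside the single-drug arrays gene by gene. The control channels may hold 1 RNA extract, which is not stated, so the comparisons may share their controls. Control levels on the DAC-labelled array lay at least 1.5-fold from those on the Carbo-labelled and combination arrays in 1297 and 1312 of 18615 genes, against 109 between the latter pair. For the 16818 genes outside the edge columns these counts were 103, 141 and 104. With both drugs, CDKN2A lay above its value on the DAC-labelled array by a log2 difference of 0.76, past 1.5-fold. The fitted value of RUNX3 was also higher by that measure, but its signal on the DAC-labelled array was below background and no size is given. None of the other genes passed 1.5-fold, and 0 of the 9 were lower. Over all genes 1.72 % were higher and 6.64 % lower, or 1.8 % and 0.333 % without the edge columns. CDKN2A was at least 1.5-fold lower with both drugs than on the Carbo-labelled array, by -0.79, as was RUNX3 by its fitted value, whose direction was not stable, and 0 were higher. Over all genes 3.42 % were lower and 4.21 % higher. The 4 genes measured in both channels of every array were CDKN2A, ESR1, PDLIM4 and RASSF1. By their brightest probes they differed from the sum of the single-drug log2 changes by 0.01 to 0.29, all under 1.5-fold. The other RASSF1 probe, A_24_P148777, differed from that sum by -0.60, past 1.5-fold, and CDKN2A probe A_23_P43484 by -0.11. Over all genes 7.56 % lay below that sum and 1.77 % above it, or 1.31 % and 1.89 % without the edge columns. For CDKN2A, the change with both drugs was -0.32 and the sum of the single-drug changes -0.60.

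The pathways around the 9 genes were followed through 8 lists, with 129 of 131 genes measured. On the DAC-labelled array 16 rose (12.4 %, against 10.6 % of all genes) and 6 fell (4.65 % against 4.67 %). On the Carbo-labelled array 6 rose (4.65 % against 2.76 %) and 1 fell (0.775 % against 1.49 %). With both drugs 13 rose (10.1 % against 7.47 %) and 8 fell (6.2 % against 5.93 %). Without the edge columns 8 of 118 rose on the DAC-labelled array, where 868 of 16836 genes (5.16 %) rose over all. With arrays centred on the median, 9 rose and 30 fell there, where over all genes 9.21 % rose and 24.1 % fell. In the same setting 10 rose and 18 fell on the Carbo-labelled array (8.99 % and 19.1 % over all genes), and 8 rose and 26 fell with both drugs (4.34 % and 21.4 %).

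Partners of CDKN2A in the cell cycle held the largest changes. Of 16 genes, 4 rose and 2 fell on the DAC-labelled array, 4 rose and 1 fell on the Carbo-labelled array, and 4 rose and 4 fell with both drugs. On each array 25 % thus rose, against 10.6 %, 2.76 % and 7.47 % of all genes. The falls were 12.5 %, 6.25 % and 25 %, against 4.67 %, 1.49 % and 5.93 %. Without the edge columns 3 of 14 rose on the DAC-labelled array, against 5.16 % of all genes. MDM2, the ubiquitin ligase that ARF inhibits, changed by 3.34, 0.63 and 3.25, and CDKN1A, the p21 inhibitor of cyclin-dependent kinases, by 2.97, 0.96 and 2.91. Both are p53 targets and also stand in the list of 12 above. CDKN2C, which encodes p18, a relative of p16, changed by -1.69, -0.23 and -1.71. CCND3, a D-type cyclin, changed by 1.78, 0.44 and 0.65, and its spot lies in the edge columns. CDK4 and CDK6, the kinases p16 inhibits, and RB1 all changed by less than 0.25.

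Of 16 genes that are relatives of RUNX3 or act in the TGF-β pathway, 2 rose on the DAC-labelled array (12.5 %, against 10.6 % of all genes, or 5.16 % without the edge columns), 0 on the Carbo-labelled array and 2 with both drugs (12.5 % against 7.47 %). None of the 16 fell on any array. In a fit without the edge columns, SMAD2 moved from 0.27 to -0.21 and SMAD3 from 0.46 to 0.34 on the DAC-labelled array. RUNX1 changed by -0.35, -0.05 and -0.50, RUNX2 by 0.12, 0.01 and -0.13, and CBFB, the shared partner subunit of RUNX factors, by -0.44, -0.17 and -0.55. BMP4, a growth factor of this family, changed by 1.19, 0.43 and 1.26, SMAD3, a signal carrier of TGF-β, by 0.46, -0.15 and 0.64, and TGFBR2, a TGF-β receptor, by 1.24, -0.48 and -0.32. The TGFBR2 spot lies in column 10, next to the dim edge, and stays in the fit without the edge columns. Its control level was 10.07 on the DAC-labelled array, against 11.39 on the Carbo-labelled and 11.35 on the combination array. Its treated levels were 11.31, 10.92 and 11.03, so its rise on the DAC-labelled array goes with a dim control signal.

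Over all genes 10.6 %, 2.76 % and 7.47 % rose on the DAC-labelled, Carbo-labelled and combination arrays, and 4.67 %, 1.49 % and 5.93 % fell. The lists that follow are set beside these shares. Of 17 RASSF and Hippo genes, 1 rose on each array (5.88 %), and RASSF4 changed by 0.46, 0.81 and 1.23 in the same order. RASSF7 changed by -0.73, 0.05 and -0.41, the only fall of that list, and YAP1, the coactivator that Hippo signalling restrains, by 1.98, 0.02 and 0.45 from a spot in the edge columns. Of 19 retinoid and estrogen genes, 3, 1 and 1 rose and 1, 0 and 1 fell. GPER1, a membrane estrogen receptor, changed by -1.31, 0.86 and -0.71, ESRRA, an orphan receptor related to ESR1, by 0.78, 0.21 and 0.83, and CRABP2, a retinoic acid carrier, by 0.72, -0.04 and 0.57. CYP26B1, which degrades retinoic acid, changed by 1.13, 0.06 and 0.14 from the edge columns. Of 18 genes, WNT antagonists and other WNT pathway genes such as CTNNB1, 2, 0 and 2 rose and 1, 0 and 0 fell. FRZB, a relative of SFRP1, changed by 0.89 with both drugs and APC2 by 0.84, while AXIN1 (1.54) and KREMEN1 (0.95) rose from edge columns on the DAC-labelled array.

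Of 14 DNA repair genes, 2 rose on the DAC-labelled array (14.3 %, against 10.6 % of all genes). They were MSH6 (1.07) and PMS2 (1.71), both from the edge columns. XRCC1, a scaffold of single-strand break repair, fell there by 0.62 and with both drugs by 0.70. Of 17 genes of TIMPs and matrix proteases, 1, 0 and 2 rose and 0 fell. The rises were 5.88 %, 0 % and 11.8 %, against 10.6 %, 2.76 % and 7.47 % of all genes. MMP14, a membrane protease, changed by 1.93, 0.40 and 0.89 with a spot in the edge columns, and TIMP2 by 0.13, 0.54 and 0.65. Of 12 genes of PDZ-LIM proteins and their actin partners, PDLIM1 changed by 0.67, 0.34 and 1.03 and PDLIM5 by -0.52, -0.31 and -0.78.

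**Figure D5:**
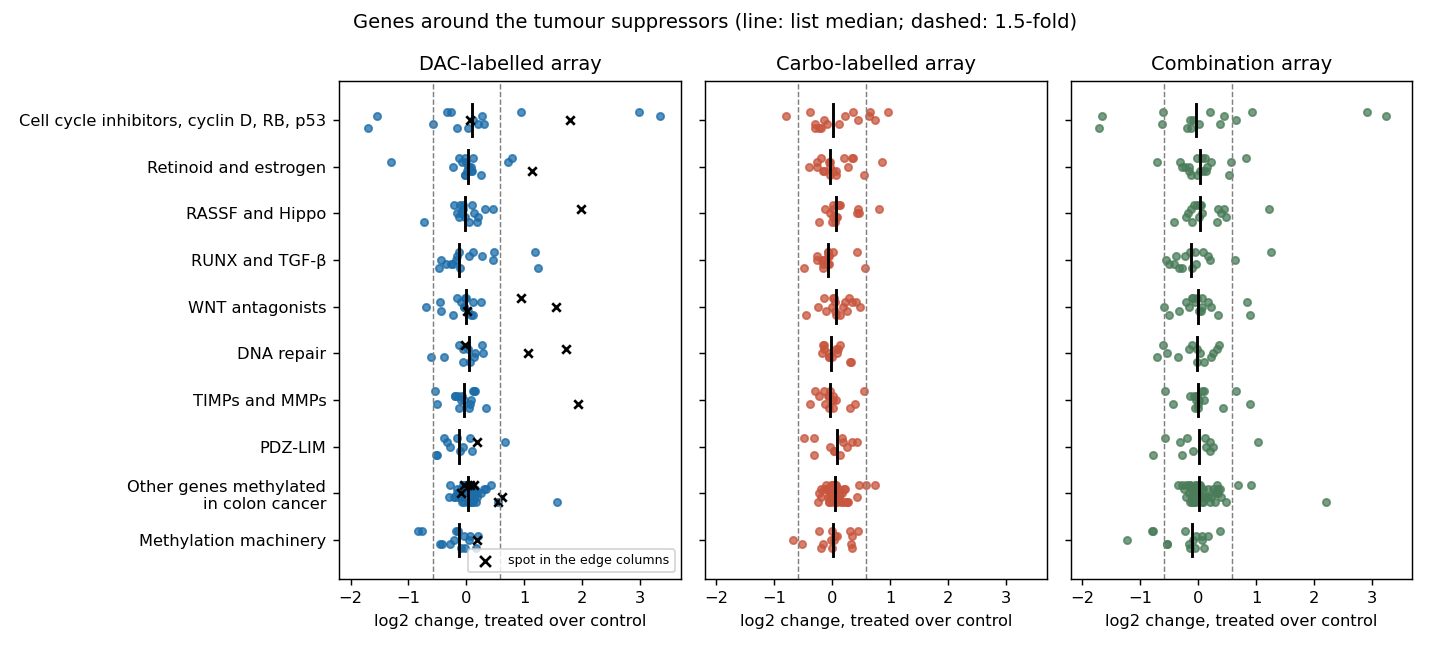
log2 change (x axis, treated over control) of each gene of 10 lists (y axis) on the 3 arrays. Vertical bars are list medians and dashed lines mark 1.5-fold. Crosses are genes whose spot lies in the edge columns of the DAC-labelled array, by a single spot of each probe. All list medians lie between -0.14 and 0.10, and the points farthest out are MDM2 on the DAC-labelled (3.34) and combination (3.25) arrays.

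Of 56 other genes known for methylation in colon cancer, 24, 27 and 26 were above background in a channel on the DAC-labelled, Carbo-labelled and combination arrays. On the DAC-labelled array 2 rose (3.57 %, against 10.6 % of all genes), on the Carbo-labelled array 2 (3.57 % against 2.76 %) and with both drugs 3 (5.36 % against 7.47 %), and 0 fell on any array. Their median log2 changes were 0.03, 0.04 and 0.01 in that order. In a fit without the edge columns 50 of these genes were left, of which 1, 0 and 2 rose. In that fit 5.16 %, 2.72 % and 7.39 % of all genes rose. ID4, an inhibitor of DNA binding by helix-loop-helix factors, was 0.61 higher on the DAC-labelled array from a spot in the edge columns. IGFBP3, a carrier of insulin-like growth factors and a p53 target, changed by 1.57, 0.25 and 2.21. THBS1, an inhibitor of vessel growth, changed by -0.06, 0.47 and 0.69 and CDKN1C, the p57 inhibitor, by 0.07, 0.74 and -0.14, the first of these from the edge columns. IGFBP7, whose control channel was never above background, had a rounded lower limit of 1.5-fold on the combination array. Its spot lies in the edge columns, so the fit without them leaves it out. SFRP2, SFRP4, SFRP5 and WIF1, antagonists of WNT like SFRP1, changed by 0.35 or less in either direction.

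The machinery of methylation and its readers was also followed. Of 16 genes, 0 rose on any array, and 2, 1 and 3 fell on the DAC-labelled, Carbo-labelled and combination arrays (12.5 %, 6.25 % and 18.8 %, against 4.67 %, 1.49 % and 5.93 % of all genes). UHRF1, which guides DNMT1 to newly made DNA, changed by -0.84, 0.31 and -0.78. CBX1, which encodes HP1β, changed by -0.76, -0.23 and -0.80. CBX5, which encodes HP1α, changed by -0.67 on the Carbo-labelled array and -1.22 with both drugs, and its value of 0.18 on the DAC-labelled array comes from the edge columns.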

How the data were processed

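RNA of treated and control YB5 cells was measured on 3 dual-colour arrays, 1 per treatment, grouped by the sample labels. The authors deposited scanner files with spot intensity in both channels, read by Agilent Feature Extraction (9.5.3.1 in the file headers, while the submitters' processing notes name 8.5.1.1). Mean and median intensity in the deposited files are without background subtraction, and the processed intensity is background subtracted, detrended and dye normalized. The log10 ratio in the deposited scanner files is red over green, and its sign was turned here. The table of log2 ratios that the authors deposited was loess normalized with limma and agilp in R 3.0.2. Its background step and direction are not given in the sources used here, and it was read as treated over control because it correlated positively with the log2 changes computed here (0.838 to 0.936). Its columns have medians of -0.01, 0.00 and -0.01.

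Here normexp (offset 50) removed the median local background from mean signals, and loess followed within each array, without control spots and without 276, 111 and 89 gene spots that the scanner software had marked as outliers. The software was R 4.3.3 with limma 3.58.1, and the R packages jsonlite 2.0.0 and data.table (version 1.17.8) read the files. Spots of a probe were averaged, and a gene is given by its brightest probe. Single-channel levels are log2 values after Aquantile scaling between arrays. A gene was called changed at 1.5-fold, with no test and no p-value. Where 1 channel was below background, the fold is a limit, set against the higher of that probe's level and the lowest level above background. Of 41000 probes, 29381 matched a RefSeq gene (26386 by accession). RefSeq positions are GRCh38.p14 and are not mixed with the GRCh37 positions of the probes, and no genome annotation was used to place probes in exons. The scripts were tested on simulated data.

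All 9 genes are named with every probe. Of each related list, up to 4 genes are named, those changed 1.5-fold and above background in a channel, by largest change, and 1 gene that this rule selects is not reported here. The rule also names the 5 genes nearest in pattern to RUNX3, which are left out because that distance uses a RUNX3 value below background. The further genes ID4, RUNX1, RUNX2, CBFB, CDK4, CDK6, RB1, SFRP2, SFRP4, SFRP5 and WIF1 were named outside this rule for their roles, after their values were seen. The genes and lists were chosen with earlier results of these data known. Settings varied were background, normalization, scanner values, outlier spots, edge columns, the authors' table, the probe rule, a background filter and the fold.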

Additional observations from a re-analysis of the deposited data

Results flagged for a closer look

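CDKN2A probe A_23_P43484 moved in opposite directions on the single-drug arrays, each past 1.5-fold and with both channels well above background. The log2 change was -0.70 on the DAC-labelled array and 0.99 on the Carbo-labelled array. Each kept its direction in the other settings but did not always pass 1.5-fold. The first was -0.44 with outlier-marked spots kept, and the second was 0.56 with arrays centred on the median. Each treatment has 1 array, and the difference between these values was not tested.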

How the results depend on the processing

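No paired analysis was possible because each treatment has 1 array, and no replicate could be left out. With 10 alternative settings and a 2-fold threshold, the fall of CDKN2A on the DAC-labelled array and the rises of RUNX3 on the Carbo-labelled and combination arrays kept their direction and passed 1.5-fold in every setting. Centring on the median in place of loess moved the median of all genes to -0.13, -0.16 and -0.10 on the DAC-labelled, Carbo-labelled and combination arrays. Of the 9 genes, 1 rose and 3 fell on the DAC-labelled array, 2 rose on the Carbo-labelled array, 3 fell with both drugs, and 2 lay above and 4 below the sum of the single-drug changes. Over all genes in this setting 9.21 %, 8.99 % and 4.34 % rose and 24.1 %, 19.1 % and 21.4 % fell. Of all genes 23.3 % lay above that sum and 17.6 % below it. For the settings that follow, counts over all genes (of at most 18615) are given for each array, but not for differences between arrays. A normexp offset of 0 gave 1 up and 2 down, 2 up, and 2 up on these arrays, and 1 gene lower with both drugs than on the DAC-labelled array. Processed signals gave 3, 2 and 2 genes up, 3 lower with both drugs than on the DAC-labelled array, and 1 above and 4 below the sum. The scanner's log ratio gave 1, 2 and 2 up, 1 lower, and 1 above and 2 below. In the authors' deposited values 2 fell on the DAC-labelled array, 2 rose with both drugs, 4 were higher with both drugs than on the DAC-labelled array, and 1 lay above the sum. The mean over a gene's probes gave 2 up on the Carbo-labelled array (455 over all genes). Among genes above background, 1 was higher with both drugs than on the DAC-labelled array and 0 lay below the sum, by the smaller number of genes compared. RUNX3 with both drugs minus Carbo-labelled reversed from -1.52 to 0.40 with processed signals and with the scanner's log ratio, and against the sum from -1.14, which rests on values below background, to 0.10 with offset 0 and to 0.82 with both of the former. The cause of the other differences was not tested. Over all genes the counts ranged from 868 to 4465 up and 584 to 4478 down on the DAC-labelled array, 455 to 1674 and 152 to 3554 on the Carbo-labelled array, and 807 to 2397 and 793 to 3985 with both drugs. Signal over background limits RARB, MGMT, SFRP1, TIMP3 and 2 probes of ESR1, whose values have no order.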
